A study of Brassica napus with 45 samples.

Results

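The segment described here is the last stretch of chromosome A02 of Brassica napus (rapeseed), genes with running numbers 3697 to 4198 on that chromosome. The running number is the digits after the G of an identifier such as BnaA02G0369700ZS, without leading zeros and the final 2 zeros, and it follows gene order. The segment held 502 of the 100919 genes listed in the overexpression experiment and 400 of the 78057 listed in the knockout experiment. The members were chosen by the level of both overexpression lines against wild type, since neighbouring genes there were higher in the lines, so those values, and the calls made from them, are given below as a description that supports nothing. Of the 502 members, 221 passed the filter on low values (at least 1 TPM, a read share scaled for gene length, in at least 3 libraries) and 281 did not. The share that passed was 44.0%, against 47.0% of all listed genes. Among the members left out, 88 were listed at 0 in all 27 libraries, and no group mean of any of them exceeded 1.44 TPM. In the knockout experiment 202 members passed, and 172 passed in both.

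Brassica napus arose from a cross of Brassica rapa and Brassica oleracea and carries the A chromosomes of the one and the C chromosomes of the other, so most genes of A02 have a related copy on a C chromosome, many of them on C02. Exchanges between A and C chromosomes and segments crossed in from other material are known among rapeseed lines, and they alter many neighbouring genes at once. NAC proteins are plant transcription factors, several of which act in drought and in the response to abscisic acid (ABA), the hormone that closes stomata under water shortage. The members carry identifiers only: none of the 502 matched the reference table of gene names, so no function is given for any of them.

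RNA was sequenced from leaves of seedlings grown in nutrient solution at 25 °C, in days of 16 h light. The overexpression experiment held BnNAC038 overexpression line 1, BnNAC038 overexpression line 2 and its own wild type, and the knockout experiment held a BnNAC038 knockout (KO-1) and another wild type, whose columns are named K407. Each genotype was given 50 µM ABA for 3 h, 20% polyethylene glycol (PEG, which withdraws water from the root) for 6 h, or no treatment, with 3 libraries in each of the 15 groups and 45 libraries in all. No source used here gives the promoter of the transgene, the nature of the knockout allele, or whether replicates were separate plants or pools, so the p-values measure the spread between these libraries. Each overexpression line, and the knockout, is a single line, and the transgene itself was not identified among the identifiers. In whole leaves, fewer cells of a type and less RNA per cell cannot be told apart. In the genotype field, the libraries of line 2 name a run of other NAC numbers, and the titles, which give BnNAC038 overexpression line 2, were followed. The overexpression values are TPM, and the knockout values are a normalized value per gene whose kind is not stated, so levels are not compared between the experiments.

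Several wild type libraries stood apart in the genes of the segment. In the overexpression experiment, replicates 2 and 3 of ABA-treated wild type lay between the lines and the other wild type libraries in the sum of the members raised in the lines. In the knockout experiment, untreated wild type replicate 3 differed most from the treated wild type at some members that were high in the lines, and PEG-treated knockout replicate 3 was far below the other 2 at some members (28.7 against 170.1 and 141 at member 4194). Counts of called members that rest on these libraries are given with and without them. The number of genes at 1 TPM or above ranged over 38105 to 41754 per library in the overexpression experiment. The deposited values keep no read depth, so counting error is unknown.

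The segment was chosen by the level of the lines against wild type, and its ends are described here in untreated leaves. No condition of the lines is counted as separate from that choice. Just inside the start, BnaA02G0369700ZS (3697) had 3.05 TPM in line 1, 3.05 TPM in line 2 and 0.971 TPM in wild type (means of 3 libraries), and 3699 had 15.7, 19.7 and 8.71 TPM in the same order of groups. The next member, 3700, had 0.557, 0.682 and 0.601 TPM. Just outside, 3690, 3692 and 3696 had log2 changes of -0.24, -0.25 and 0.37 in line 1 and -0.10, -0.41 and 0.38 in line 2. At the far end, 4196, 4197 and 4198 had log2 changes of 0.18, -0.25 and 1.07 in line 1 and 0.14, 0.21 and 1.15 in line 2. Only 5 genes lie beyond it on A02, whose last number is 4203, and 4 of them passed the filter. The nearest, 4200, had 45.1 TPM in line 1, 48.7 TPM in line 2 and 48.4 TPM in wild type. The next, 4201, had 2.68, 2.98 and 4.71 TPM, and 4202 had 7.60, 8.88 and 7.97 TPM, in the same order of groups. A log2 change here is a difference of mean log2(TPM + 1), which understates the change of low genes.

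Within these ends the change was not even. Cut into runs of 25 consecutive tested members, the segment in untreated leaves had a high part at each end and a middle without a common direction. In untreated leaves the median log2 change of line 1 over wild type was 0.68 for members 3697 to 3739, 0.46 for 3740 to 3787 and 0.25 for 3792 to 3844. It was -0.12 for 3847 to 3902 and -0.10 for 3911 to 3989, and 0.19 for 3994 to 4053. It was 0.47, 0.52 and 0.46 for the last 3 runs, which began at 4056, 4094 and 4144. Line 2 had medians of 0.83 and 0.63 in the first 2 runs, 0.01 and 0.04 in the fourth and the fifth, and 0.55, 0.50 and 0.45 in the last 3. In untreated leaves the label of a raised segment therefore holds for both ends and not for members 3847 to 4053. There higher and lower members were mixed. In untreated line 1, members 3847 to 3902 had 4 called higher and 9 lower, and 3994 to 4053 had 2 and 3. Of all tested genes, 2.31% and 2.28% were called in these directions. With PEG, 3994 to 4053 had 7 higher and 4 lower in line 1 (6.53% and 6.91% of all genes), at a median of 0.04. PEG-treated line 2 had 8 and 2 there (5.41% and 5.22%), at a median of 0.32. With PEG the highest run spanned members 4070 to 4109, at medians of 1.06 in line 1 and 1.34 in line 2. Earlier on A02, 1712 overlapping runs of the same length had medians between -0.18 and 0.17 in untreated line 1, and between -0.15 and 0.22 in untreated line 2.

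**Figure D1:**
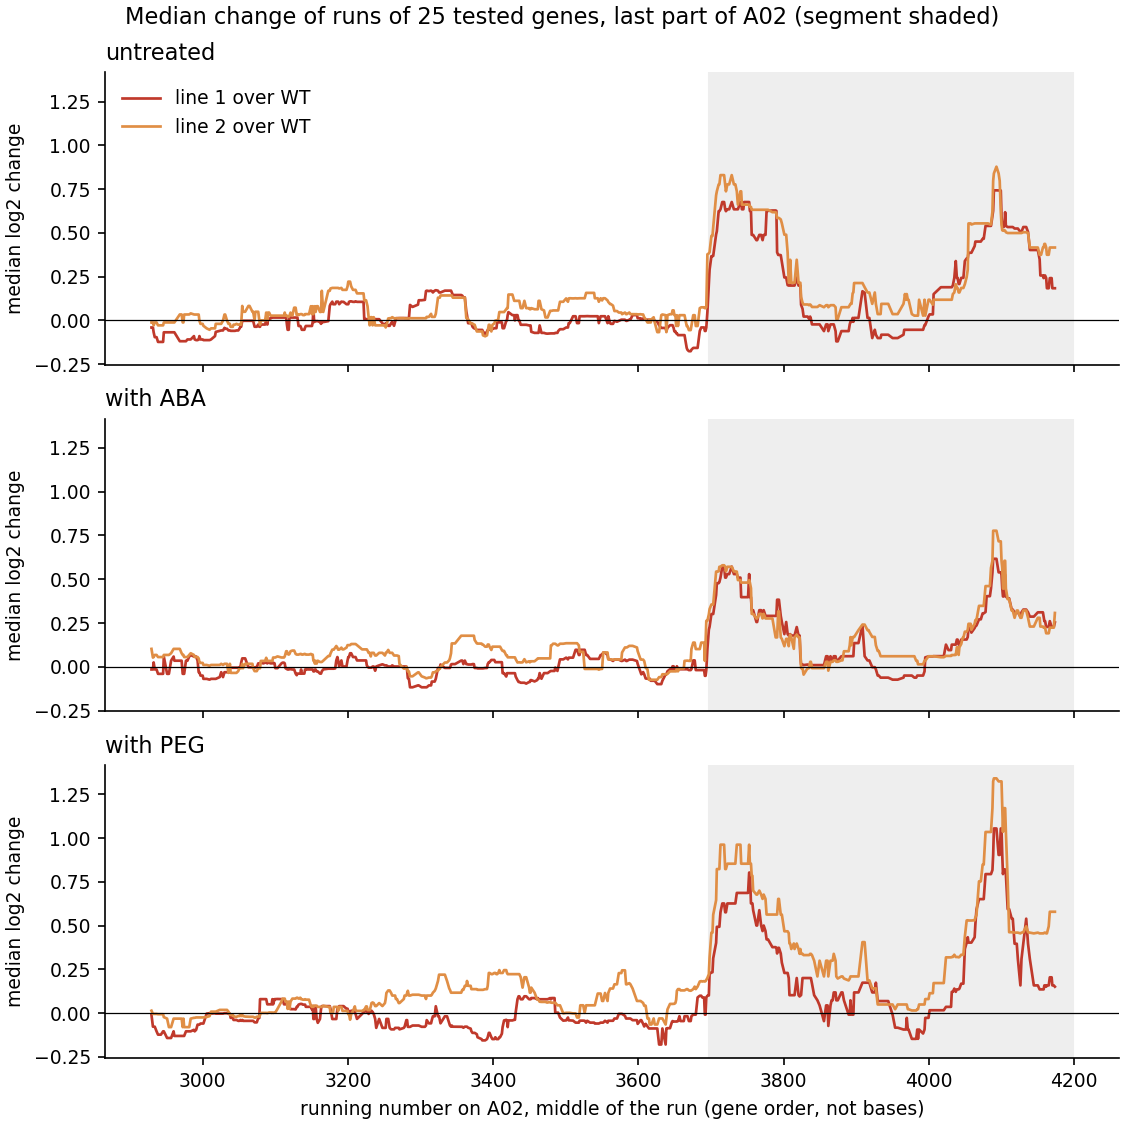
Median log2 change over wild type (y axis) of sliding runs of 25 consecutive tested genes along the last part of A02, placed by the middle running number of each run (x axis, gene order), for line 1 and line 2 in untreated, ABA-treated and PEG-treated leaves. The shaded segment holds a peak at each end and a lower middle, and in untreated line 1 the runs reach 0.74 inside it and 0.17 before it.

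Chromosome C02, which holds many of the related copies, showed no run of comparable height. Over 2525 runs on C02, medians lay between -0.21 and 0.12 in untreated line 1 and between -0.27 and 0.29 in untreated line 2. The lowest C02 runs were those of PEG-treated leaves, at -0.39 for genes 5445 to 5494 in line 1 and -0.51 for genes 5433 to 5484 in line 2. Copies of the segment's members on C02 were not paired with them here, and DNA of the lines was not analysed here. Reads shared between A and C copies may have been split between them by the counting.

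With all groups fitted, more members were called higher than lower in each line and condition, a call being a Benjamini-Hochberg adjusted p under 0.05 in limma over all 47474 tested genes. In untreated leaves line 1 had 69 members called higher and 26 lower of the 221 tested, with 2.31% and 2.28% of all tested genes called in these directions. Untreated line 2 had 82 higher and 26 lower, beside 5.35% and 2.7% of all genes. With ABA line 1 had 38 higher and 18 lower (1.02% and 1.35% of all genes) and line 2 had 50 higher and 15 lower (1.59% and 1.26%). With PEG line 1 had 87 higher and 27 lower (6.53% and 6.91%) and line 2 had 96 higher and 24 lower (5.41% and 5.22%). These counts restate how the segment was chosen. The median log2 change of the members was 0.33 in untreated line 1 and 0.37 in untreated line 2, beside -0.02 and 0.04 over all tested genes. Of the tested members, 70 were called in none of the 6 comparisons and 1 was called in both directions.

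The ABA counts depended on single libraries and on the groups fitted. With only the 2 compared groups in the fit, 2 members were called higher and 5 lower in line 1, and 6 higher and 5 lower in line 2. Without ABA-treated wild type replicate 1, 29 members were called in line 1 and 30 in line 2, in place of 56 and 65. Without ABA-treated line 1 replicate 2 the count for line 1 was 36, and without ABA-treated line 2 replicate 3 that for line 2 was 41. Without ABA-treated wild type replicates 2 and 3, 62 and 70 members were called, and the median log2 change was 0.31 in both lines, in place of 0.20. That fit has 1 ABA-treated wild type library, assumed to vary like the other groups.

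Both lines were called together for most of these members, and their comparisons share the wild type libraries of each condition. In untreated leaves 66 members were called higher in both lines (2.01% of all tested genes) and 22 lower in both (1.69%). With ABA the counts were 37 and 15 (0.754% and 0.937% of all genes), and with PEG 85 and 22 (3.47% and 3.49%). Called higher in both lines both untreated and with PEG were 55 members (1.04% of all genes), spread over 3697 to 4198 and called the raised members below. Called lower in the same 4 comparisons were 18 members (1.02% of all genes), from 3746 to 4191, called the lowered members. Of the raised members, 33 were also called higher with ABA in both lines (0.493% of all genes), and of the lowered members 14 were called lower there (0.708%). By runs of 25, the raised members numbered 13, 10, 2, 3, 4, 1, 9, 7 and 6 from the start to the end of the segment, and the lowered members 0, 1, 3, 7, 3, 2, 0, 1 and 1. The run from 3847 to 3902 thus held the most lowered members and few raised ones.

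Summed per library, the 55 raised members had 1207, 1242 and 1133 TPM in untreated line 1 and 1061, 1263 and 1244 TPM in untreated line 2. In untreated wild type they had 316, 270.4 and 291 TPM, and line and wild type libraries did not overlap. Raised and lowered members were picked by their calls in the untreated and PEG-treated libraries, so a gap between their sums there restates the choice. With PEG the raised members had 1320, 1395 and 1308 TPM in line 1 and 1613, 1551 and 1323 TPM in line 2. PEG-treated wild type had 362, 326 and 365 TPM, and the groups were apart. The most abundant raised member, BnaA02G0389500ZS (3895), averaged 382 ± 21.0 TPM in untreated line 1, 369 ± 62.8 TPM in untreated line 2 and 62.2 ± 12.8 TPM in untreated wild type (SD, n = 3 each). Without that member the untreated sums still averaged 812 TPM in line 1 and 820.0 TPM in line 2, against 230.1 TPM in wild type. Over the raised members the log2 change in untreated leaves ran between 0.45 and 5.34 in line 1, with a median of 1.33, and 38 of the 55 changed by at least 2-fold on that scale. In line 2 the median was 1.47 and 41 reached 2-fold. The 18 lowered members summed to 20.1, 17.3 and 16.4 TPM in untreated line 1 and 19.5, 17.6 and 17.5 TPM in untreated line 2, against 83.5, 108 and 92.0 TPM in untreated wild type. They are low genes, and their median log2 change was -1.28 in line 1 and -1.23 in line 2.

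**Figure D2:**
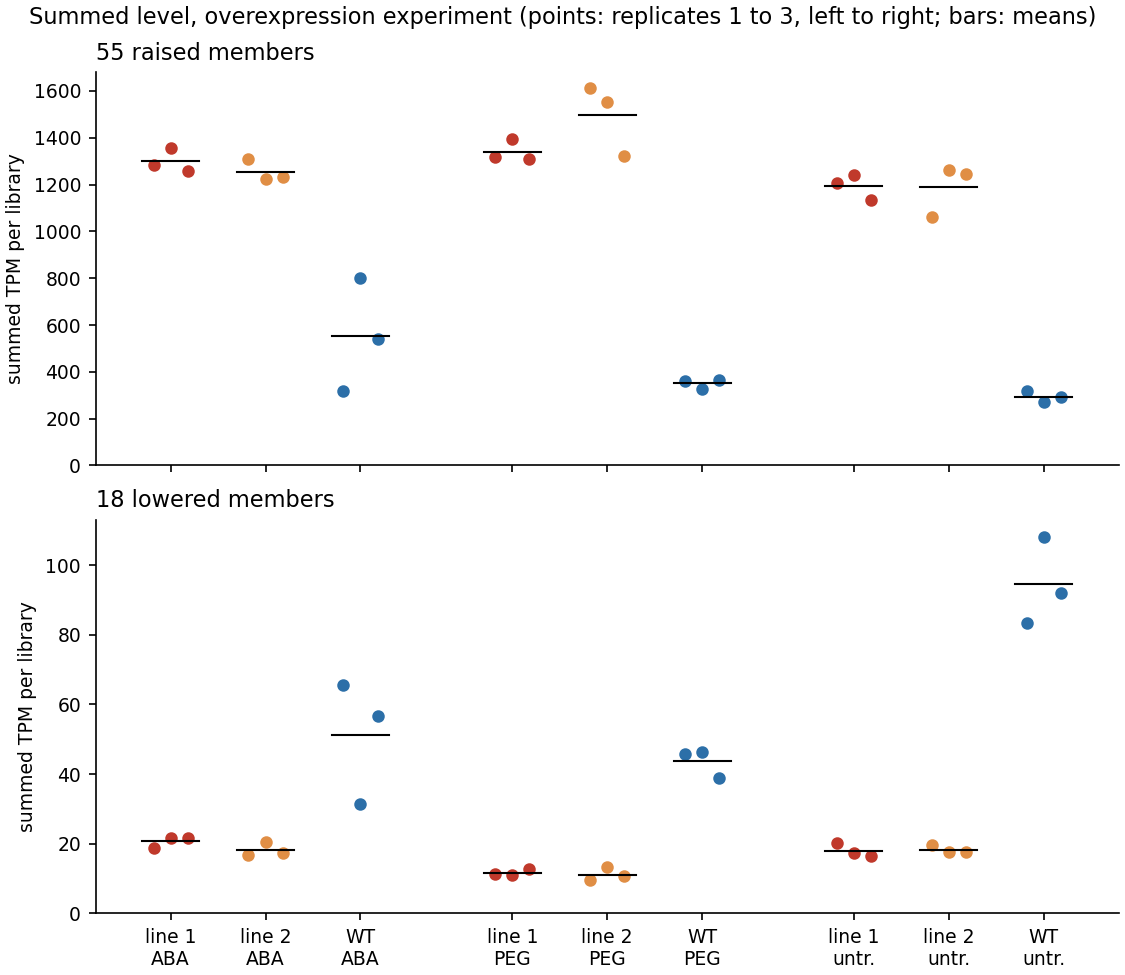
Summed TPM (y axis) of the 55 raised members (upper panel) and the 18 lowered members (lower panel) in each library of line 1, line 2 and wild type, with ABA, with PEG and untreated; points are libraries and bars group means. Every line library lies above every wild type library in the upper panel and below it in the lower one, and the ABA-treated wild type libraries spread between 318 and 800.5 TPM for the raised members. The members were picked by their calls in the untreated and PEG-treated libraries.

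ABA-treated wild type varied more than any other group of the experiment in the raised sum. The raised members had 1284, 1357 and 1260 TPM in ABA-treated line 1 and 1308, 1225 and 1232 TPM in ABA-treated line 2, against 318, 800.5 and 540 TPM in ABA-treated wild type replicates 1, 2 and 3. Replicate 1 lay near untreated wild type, and replicates 2 and 3 lay above every untreated and PEG-treated wild type library. At the median raised member, replicates 1, 2 and 3 reached 0.194, 0.622 and 0.567 of the mean level of the 6 ABA-treated line libraries. The same share was between 0.219 and 0.258 in untreated wild type libraries and between 0.146 and 0.198 in PEG-treated ones. Above every untreated wild type library were 51 of the 55 raised members in replicate 2 and 51 in replicate 3, against 13 in replicate 1. The lowered members summed to 65.7, 31.5 and 56.7 TPM in replicates 1, 2 and 3, so replicate 2 lay nearest the lines there as well, which had at most 21.6 TPM with ABA. What sets these libraries apart was not tested.

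The members with the largest change between lines and wild type were listed at 0 in wild type. BnaA02G0407700ZS (4077) had 37.4, 35.1 and 46.4 TPM in untreated line 1 and 34.1, 40.2 and 43.2 TPM in untreated line 2, and was at 0 in all 3 untreated wild type libraries. With PEG it had 12.8, 14.7 and 15.7 TPM in line 1 and 14.5, 15.7 and 12.1 TPM in line 2, and it was at 0 in all 3 wild type libraries. With ABA it had 40.2, 45.2 and 37.1 TPM in line 1 and 56.5, 35.6 and 37.2 TPM in line 2, against 0, 16.3 and 15.1 TPM in wild type replicates 1, 2 and 3. The member was thus present in every line library and, of the 9 wild type libraries, in the 2 ABA-treated ones that stood apart. BnaA02G0409800ZS (4098) behaved alike, at 14.6, 17.6 and 11.9 TPM in untreated line 1, 9.22, 17.2 and 14.4 TPM in untreated line 2 and 0 in every untreated wild type library. With PEG it reached 42.4, 33.7 and 26.1 TPM in line 1 and 42.5, 52.5 and 37.7 TPM in line 2, and it stayed at 0 in wild type. In ABA-treated wild type replicates 1, 2 and 3 it had 0, 11.1 and 7.70 TPM. No fold is given against a group at 0. By the same rule in reverse, no member with a mean of at least 1 TPM in untreated and PEG-treated wild type was at 0 in all 12 untreated and PEG-treated line libraries.

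**Figure D3:**
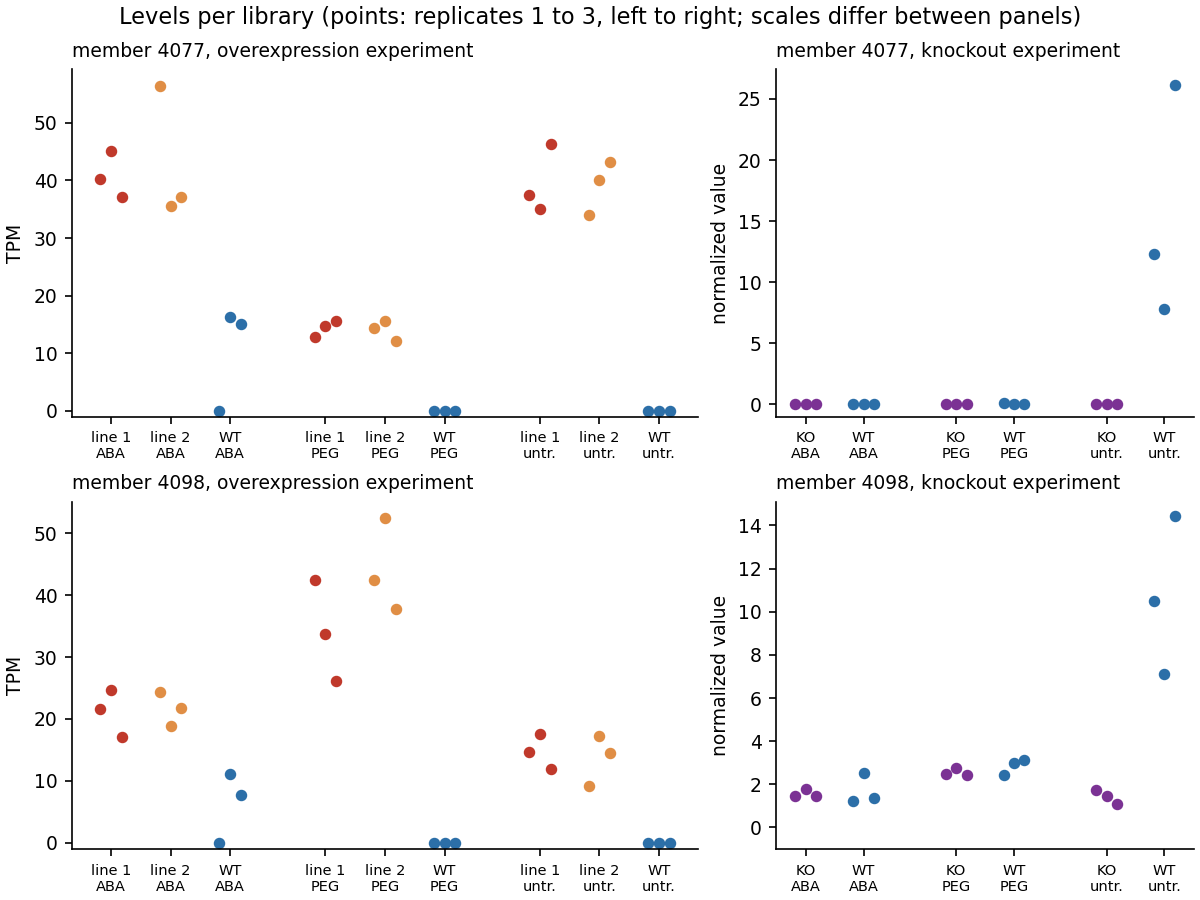
Level per library (y axes, TPM on the left and normalized value on the right) of members 4077 (top) and 4098 (bottom), in line 1, line 2 and wild type of the overexpression experiment and in knockout (KO) and wild type of the knockout experiment. Both are at 0 in untreated and PEG-treated wild type on the left, and untreated wild type of the knockout experiment stands above its 5 other groups on the right.

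The 2 lowered members with the largest mean change of both lines in untreated leaves lay in the middle of the segment. BnaA02G0384800ZS (3848) had 5.10, 3.02 and 3.82 TPM in untreated line 1 and 4.64, 6.02 and 2.74 TPM in untreated line 2, against 19.6, 36.1 and 26.1 TPM in untreated wild type. With PEG it had 3.54, 3.04 and 2.21 TPM in line 1 and 1.10, 3.43 and 3.08 TPM in line 2, against 9.96, 5.72 and 6.00 TPM in wild type, with no overlap but a smaller gap. Its PEG call in line 1 was lost in 9 of the alternatives. BnaA02G0385500ZS (3855) had 1.02, 0.599 and 0.879 TPM in untreated line 1 and 1.08, 0.867 and 0.709 TPM in untreated line 2, against 7.66, 7.30 and 7.39 TPM in untreated wild type. With ABA it had 0.935, 0.928 and 1.25 TPM in line 1 and 1.10, 1.26 and 1.13 TPM in line 2, against 7.08, 3.39 and 5.55 TPM in wild type. The lowest of these wild type values was again that of replicate 2. In the knockout experiment the untreated values of 3855 were 53.7, 55.6 and 52.7 in the knockout and 44.2, 43.1 and 33.1 in wild type. This difference was not called (log2 change 0.43, limma adjusted p = 0.167).

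Where a raised member had several transcripts, the change did not always fall on each alike. For BnaA02G0377500ZS (3775), the first transcript averaged 11.9 TPM in untreated line 1, 12.01 TPM in untreated line 2 and 0.288 TPM in untreated wild type. The other averaged 4.65, 6.73 and 2.25 TPM in the same order of groups. Member 3775 is named after its values were seen. In the segment 27 members had more than 1 transcript, and 2 tested members (3959 and 3968) had identical values in every library of the overexpression experiment, so there they count as 1 measurement.

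Summed over all 502 members, the segment had 4021 ± 68.0 TPM in untreated line 1, 4001 ± 317 TPM in untreated line 2 and 2621 ± 122 TPM in untreated wild type (SD, n = 3 each). With ABA it had 3331 ± 98.2, 3326 ± 58.4 and 2381 ± 297 TPM, and with PEG 3534 ± 100.4, 3944 ± 367 and 2237 ± 22.7 TPM, for line 1, line 2 and wild type. The ratios of line to wild type were 1.53 in both lines untreated, 1.40 in both with ABA, and 1.58 in line 1 and 1.76 in line 2 with PEG. Without ABA-treated wild type replicates 2 and 3 both ABA ratios were 1.60. The 5 most abundant members made up 42.4% of the sum. The highest of them, BnaA02G0410000ZS (4100), averaged 1075 ± 38.0 TPM in untreated line 1, 1095 ± 288 TPM in untreated line 2 and 750.0 ± 82.9 TPM in untreated wild type. It was not called in either line, untreated or with PEG. Without those 5 members, the sums were 1910, 1969 and 1792 TPM in untreated line 1 and 1851, 1977 and 1857 TPM in untreated line 2, against 1270.1, 1339.6 and 1268 TPM in untreated wild type, with no overlap.

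No member was called between the 2 lines. Line 1 against line 2 uses no wild type library, but the rule took members high in both lines, so the comparison is a description too. It gave no called member in untreated, ABA-treated or PEG-treated leaves. Over all tested genes limma called 0.0484%, 0.126% and 0.173%. At an unadjusted p under 0.05 there were 15 members untreated (6.79% of those tested, against 8.02% of all genes), 1 with ABA (0.452% against 4.81%) and 36 with PEG (16.3% against 11.2%). The log2 difference, line 1 minus line 2, ran between -0.97 and 0.82 untreated, between -0.44 and 0.65 with ABA and between -1.38 and 0.46 with PEG. Its median over members with PEG was -0.14, beside -0.00 over all genes. Leaving out PEG-treated line 1 replicate 1 gave 3 called members, all lower in line 1, and leaving out line 1 replicate 3 or line 2 replicate 3 gave 1. With 3 libraries a group, these values do not show that the lines are alike.

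The change in untreated leaves and that with PEG can be set side by side without a shared library by taking line 1 for one and line 2 for the other. The sign was the same for 188 of 221 members (85.1%) between untreated line 1 and PEG-treated line 2, beside 56.0% over all tested genes. For untreated line 2 and PEG-treated line 1 it was the same for 179 members (81.0%), beside 57.9%. The members were chosen for a higher level in the lines, so this describes them.

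Over the 27 libraries of the overexpression experiment, the members most like the summed segment level were BnaA02G0402000ZS (4020, Pearson r = 0.93 of log2 values) and 3697 (r = 0.93). Member 4020 averaged 3.91 TPM in untreated line 1, 5.44 TPM in untreated line 2 and 0.674 TPM in untreated wild type. In all 30 members had an r of at least 0.8. The genes outside the segment most like it were BnaA06G0397000ZS (r = 0.93), at 21.5 TPM in untreated line 1, 21.4 TPM in untreated line 2 and 0.661 TPM in untreated wild type, and BnaA10G0201600ZS (r = 0.93). The libraries share genotype and treatment, so these values are a description.

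The knockout experiment used other plants and another wild type, and its comparison of knockout with wild type played no part in choosing the segment. In untreated leaves 10 of 202 tested members were called (4.95%), 1 higher and 9 lower in the knockout, beside 0.96% and 1.49% of all 42926 tested genes. With ABA 1 was higher and 1 lower (1.26% and 0.683% of all genes). With PEG none was called (1.33% of all genes in either direction), and 18 members had an unadjusted p under 0.05, which is 8.91% of them against 10.3% of all genes. Untreated, 42 members had such a p, 20.8% against 13.6% of all genes. The untreated count was 4 without knockout replicate 1, 6 without knockout replicate 2 and 7 without untreated wild type replicate 3. Without that wild type library and PEG-treated knockout replicate 3 together it was 14, with 4 higher and 10 lower. The ABA count was 4 without knockout replicate 2, 0 without knockout replicate 3 and 1 without any single wild type library, and the PEG count was 1 without PEG-treated wild type replicate 1.

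The 9 members lower in the untreated knockout, between 3931 and 4181, all had a positive change in both overexpression lines, and 8 of them are raised members. The segment was chosen for members high in the lines, and its 221 tested members had median untreated changes of 0.33 in line 1 and 0.37 in line 2. Of the 172 members tested in both experiments, 44 are raised members. The largest fall in the untreated knockout was that of 4077 again, at 0 in all 3 knockout libraries against 12.3, 7.84 and 26.1 in untreated wild type (log2 change -3.88, SE 0.25, limma adjusted p = 7.17e-08). Member 4098 had 1.76, 1.47 and 1.10 in the knockout against 10.5, 7.12 and 14.4 in wild type (log2 change -2.22, SE 0.20, limma adjusted p = 5.13e-06). In both, wild type replicate 3 was the highest and the groups did not overlap. Member 4107, BnaA02G0410700ZS, had 34.7, 36.2 and 35.3 in the untreated knockout against 68.1, 66.6 and 67.2 in untreated wild type, tight and apart in both groups (log2 change -0.91, SE 0.18, limma adjusted p = 0.0132). Member 4107 was picked once its values were known. The single member called higher in the untreated knockout was a lowered member, BnaA02G0410200ZS (4102), at 32.5, 40.3 and 24.5 against 15.1, 11.7 and 12.5 in wild type (log2 change 1.23, SE 0.26, limma adjusted p = 0.0201). Its call was lost without knockout replicate 1 or 2 or without wild type replicate 2 or 3, at adjusted p between 0.0508 and 0.1001, and likewise at 0.0510 with only the 2 groups fitted.

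The untreated wild type of the knockout experiment can also be set against its treated wild type at these members. This comparison and that with the knockout share the 3 untreated wild type libraries, so neither backs the other. Of the 9 members lower in the untreated knockout, 8 were called lower in ABA-treated than in untreated wild type, and 8 lower in PEG-treated wild type, where 36.6% and 26.2% of all genes were called lower. Over the 44 tested raised members, 6 were called higher and 25 lower with ABA (6 and 18 without the 2 knockout-experiment libraries that stood apart), and 9 higher and 13 lower with PEG. Member 4077 had 0, 0.0624 and 0 with ABA and 0.151, 0 and 0 with PEG in wild type, and was at or below 0.0718 in the treated knockout. So the 3 untreated wild type libraries are those in which it was clearly present. Member 4058, the exception, had 7.82, 8.49 and 7.55 in ABA-treated wild type against 6.53, 6.49 and 6.75 in untreated wild type. Of the 44 tested raised members, 30 were highest in replicate 3 among the untreated wild type libraries, beside 40.8% of all tested genes. What sets this library apart was not tested.

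**Figure D4:**
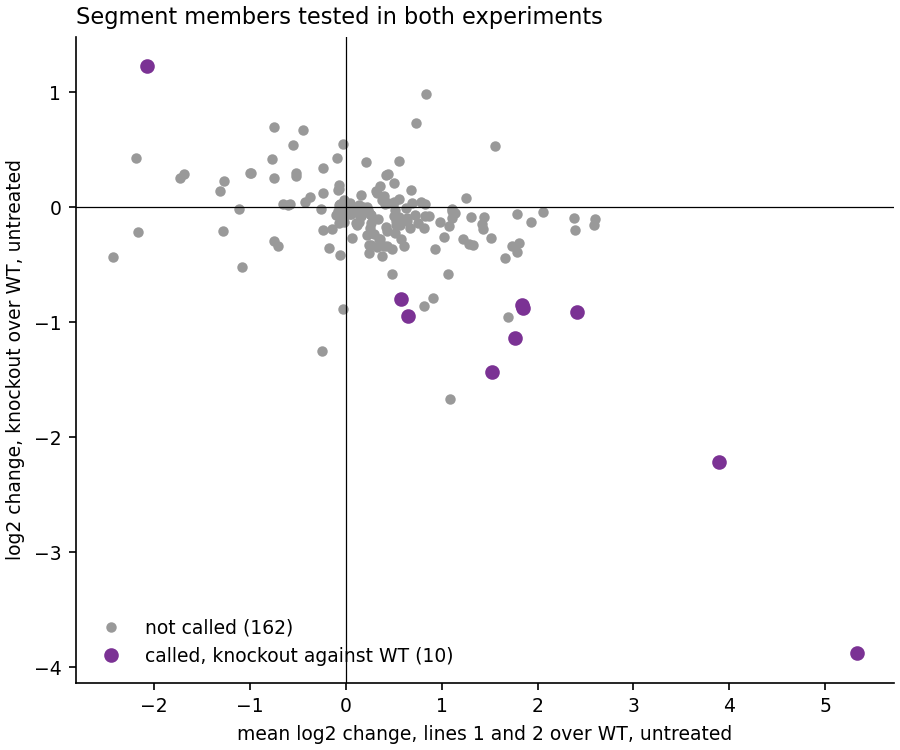
Log2 change of the knockout over wild type in untreated leaves (y axis) against the mean log2 change of lines 1 and 2 over wild type in untreated leaves (x axis) for the 172 members tested in both experiments. The 10 members called in the knockout are marked: 9 lie at lower right, down to -3.88, and 1 at upper left, at 1.23.

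Over the whole list of raised members, 44 were tested in the knockout experiment and 38 of them had a change below 0 in the untreated knockout, with a median log2 change of -0.16, beside -0.05 over all genes, of which 60.6% were below 0. Without untreated wild type replicate 3 and PEG-treated knockout replicate 3, 34 of the 44 were below 0 untreated and the median was -0.15. With ABA 23 of the 44 were below 0 (40.8% of all genes), and with PEG 27 (50.3% of all genes), with medians of -0.01 and -0.04. Of 14 lowered members tested, 9 were above 0 untreated, 11 with ABA and 9 with PEG. The summed level of the raised members was 607, 707 and 708 in the untreated knockout and 812, 905 and 790.2 in untreated wild type. Without member 3895 the sums were 294, 297 and 316 in the knockout and 395, 393 and 467 in wild type, with no overlap. With ABA the same sums were 417, 354 and 371 in the knockout and 372, 368 and 388 in wild type, which overlap. All members together summed to 3301 ± 114 in the untreated knockout and 3614 ± 293 in untreated wild type, a ratio of 0.914. The ratio was 0.915 with ABA and 0.952 with PEG. Knockout and wild type sums overlapped untreated and with PEG, while with ABA the knockout libraries, at 2902 to 2971, lay below the wild type ones, at 3030 to 3402. Without the 5 most abundant members the ABA ratio turned to 1.02, and the sums overlapped. Both called members with ABA lay outside the raised and lowered lists. BnaA02G0408600ZS (4086) had 1.61, 0.990 and 0.724 in the ABA-treated knockout against 2.13, 2.40 and 2.63 in ABA-treated wild type (log2 change -0.70, SE 0.17, limma adjusted p = 0.0464). BnaA02G0416900ZS (4169) had 11.9, 10.8 and 16.3 in the knockout against 7.38, 6.56 and 8.18 in wild type (log2 change 0.73, SE 0.14, limma adjusted p = 0.0112). Both pairs of groups were apart, and both members were chosen after the calls were seen.

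ABA called members in both directions, at a share near that of all genes. Line 1 had 32 members called higher and 32 lower with ABA, beside 15.9% and 17.9% of all genes. Line 2 had 32 higher and 29 lower, beside 14.1% and 16.2% of all genes. Wild type had 49 members higher and 30 lower, beside 16.4% and 18.3% of all genes. Without ABA-treated wild type replicates 2 and 3 the wild type count was 42, with 1 treated library assumed to vary like the other groups. BnaA02G0381500ZS (3815) rose with ABA in all 3 genotypes. It reached 54.3, 66.2 and 46.4 TPM in ABA-treated line 1 against 10.4, 7.63 and 8.23 TPM untreated, and 66.7, 39.8 and 54.5 TPM in ABA-treated line 2 against 8.88, 11.5 and 8.31 TPM untreated. In wild type it had 48.4, 35.5 and 43.0 TPM with ABA against 6.18, 5.55 and 7.87 TPM untreated (log2 change 2.52, SE 0.21, limma adjusted p = 3.29e-09), the largest rise of a named member there. BnaA02G0405700ZS (4057) rose to 28.8, 45.6 and 38.7 TPM in ABA-treated wild type, against 4.97, 6.70 and 6.23 TPM untreated (log2 change 2.46, SE 0.23, limma adjusted p = 2.43e-08). Treated and untreated libraries of these members did not overlap.

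Members that fell with ABA in wild type included 2 lowered ones. BnaA02G0390100ZS (3901) had 2.23, 0.888 and 2.61 TPM in ABA-treated wild type against 10.7, 13.2 and 10.004 TPM untreated (log2 change -2.12, SE 0.19, limma adjusted p = 1.2e-08). Member 4102 had 2.86, 0.991 and 2.59 TPM with ABA against 9.82, 14.5 and 10.6 TPM untreated (log2 change -2.04, SE 0.21, limma adjusted p = 9.79e-08). In both the lowest value was that of replicate 2. In the lines the largest falls with ABA were elsewhere in the segment. BnaA02G0414400ZS (4144) had 10.9, 8.95 and 10.4 TPM in ABA-treated line 1 against 35.3, 32.8 and 38.2 TPM untreated, and 9.59, 13.4 and 11.4 TPM in ABA-treated line 2 against 44.4, 40.1 and 36.1 TPM untreated (log2 changes -1.72 and -1.73, limma adjusted p = 7.72e-07 and 8.7e-07). BnaA02G0412900ZS (4129) fell in line 1, to 15.8, 15.8 and 13.7 TPM against 46.0, 44.8 and 41.7 TPM untreated (limma adjusted p = 4.47e-10). BnaA02G0413900ZS (4139) fell in line 2, to 3.22, 3.27 and 2.13 TPM against 9.49, 13.5 and 9.47 TPM untreated (limma adjusted p = 8.1e-05).

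Of the 55 raised members, ABA called 4 higher and 2 lower in line 1 (15.9% and 17.9% of all genes). In line 2 it called 4 higher and 3 lower (14.1% and 16.2%), and in wild type 22 higher and 0 lower (16.4% and 18.3%). Raised and lowered members were picked against the same untreated wild type libraries, so their change with ABA in wild type is partly built in. The median log2 change of the raised members with ABA was -0.05 in line 1, -0.09 in line 2 and 0.44 in wild type. Over all genes it was -0.05, -0.07 and -0.06. Of the 18 lowered members, 1 was called higher and 10 lower with ABA in wild type. With replicate 1 as the only ABA-treated wild type library, assumed to vary like the other groups, 4 raised members were called higher and 2 lower, at a median of -0.07, and 1 lowered member was called higher and 3 lower.

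PEG called 80 members higher and 54 lower in line 1 (41.9% and 26.2% of all genes), which is 60.6% of those tested. In line 2 PEG called 91 members higher and 43 lower (38.7% and 26.3% of all genes). In wild type it called 60 higher and 44 lower (39.8% and 22.4% of all genes), 47.1% of those tested. BnaA02G0411500ZS (4115) averaged 92.0 TPM in line 1 and 72.3 TPM in line 2 with PEG, against 4.35 and 4.91 TPM untreated. In wild type it had 57.5, 36.3 and 88.7 TPM with PEG against 2.47, 2.33 and 1.82 TPM untreated (log2 change 4.18, SE 0.25, limma adjusted p = 6.15e-12), the largest rise of a named member there. Member 3901 fell to 0.784, 1.22 and 0.310 TPM in PEG-treated wild type against 10.7, 13.2 and 10.004 TPM untreated (log2 change -2.82, SE 0.19, limma adjusted p = 6.39e-11). BnaA02G0405600ZS (4056) fell to 4.17, 7.97 and 2.80 TPM against 24.3, 26.3 and 22.1 TPM untreated (limma adjusted p = 5.5e-08). In the lines the largest falls were those of 3842 and 4107. BnaA02G0384200ZS (3842) had 0.683, 0.276 and 0.743 TPM in PEG-treated line 1 against 18.6, 29.2 and 21.1 TPM untreated, and 2.26, 1.97 and 1.90 TPM in PEG-treated line 2 against 14.6, 15.8 and 18.1 TPM untreated (limma adjusted p = 2.7e-09 and 2.52e-06). Member 4107, a raised member, fell in PEG-treated line 1 to 15.1, 11.8 and 22.4 TPM against 151, 155 and 126 TPM untreated (log2 change -3.10, limma adjusted p = 1.39e-07).

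Of the raised members, PEG called 26 higher and 10 lower in line 1 (41.9% and 26.2% of all genes). In line 2 it called 30 higher and 9 lower (38.7% and 26.3%), and in wild type 11 higher and 6 lower (39.8% and 22.4%). The raised members were picked from these untreated and PEG-treated libraries, so the choice shapes this difference between lines and wild type. Their median log2 change with PEG was 0.41 in line 1, 0.53 in line 2 and 0.10 in wild type. Over all genes it was 0.19, 0.14 and 0.20. Whether a response differs between line and wild type was tested for each member as an interaction, the PEG change in the line minus that in wild type. The interaction takes the libraries that chose the segment, so it is not separate evidence on the lines. For line 1 it called 12 members higher and 1 lower (0.615% and 0.512% of all genes), and for line 2 9 higher and 1 lower (0.645% and 0.893%). A positive interaction in both lines, whose tests share the wild type libraries, was called for 7 members, beside 0.242% of all genes. Its sign says that the log2 change was higher in the line, not that the response was larger. Member 3901, one of the 7, fell with PEG from a mean of 11.3 to 0.773 TPM in wild type. Its fall was smaller on the log2 scale in the lines, from 1.75 to 0.0475 TPM in line 1 and from 1.71 to 0.0542 TPM in line 2. Raised members made up 4 of the 12 in line 1 and 1 of the 9 in line 2. With a pseudocount of 0.1 the counts were 2 in line 1 and 4 in line 2, and with quantile normalization line 2 had 16. The count for line 1 was between 6 and 8 without any one of the 3 untreated line 1 libraries, PEG-treated line 1 replicate 2, untreated wild type replicate 1 or 2, or PEG-treated wild type replicate 1 or 2. Without PEG-treated wild type replicate 3 it was 28 for line 1 and 18 for line 2.

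Among these 7, 3 were chosen after their values were seen, and they are not the 3 with the largest interactions. BnaA02G0412300ZS (4123), also one of the 7 but not among those 3, had interactions of 1.76 in line 1 and 2.34 in line 2. BnaA02G0412100ZS (4121) reached 109.6, 102 and 61.9 TPM in PEG-treated line 1 and 76.3, 86.9 and 116 TPM in PEG-treated line 2, against 2.81, 1.47 and 5.28 TPM in PEG-treated wild type. Untreated it had 2.78, 1.53 and 4.35 TPM in line 1, 2.02, 0 and 2.08 TPM in line 2 and 0, 1.31 and 0.418 TPM in wild type. The groups were apart with PEG, and untreated line 2 overlapped wild type. The PEG change was larger by a log2 of 3.20 in line 1 (SE 0.61, limma adjusted p = 0.0125) and 4.07 in line 2 (SE 0.61, limma adjusted p = 0.00137). With a pseudocount of 0.1 the interaction was 2.20 (limma adjusted p = 0.393) and 4.09 (limma adjusted p = 0.140), so the call rests on how values near 0 are treated. In the knockout experiment the same member rose with PEG in wild type too, to 70.3, 95.4 and 125 against 7.51, 11.1 and 5.98 untreated (log2 change 3.41, SE 0.51, limma adjusted p = 4.02e-05), and it had 79.2, 76.5 and 13.2 in the PEG-treated knockout.

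Member 4086 rose with PEG everywhere, and to a higher level in the lines. It reached 56.5, 72.2 and 45.8 TPM in PEG-treated line 1 and 64.6, 59.9 and 50.8 TPM in PEG-treated line 2, against 14.7, 10.6 and 16.8 TPM in PEG-treated wild type. Untreated it had at most 0.406 TPM in a line library and at most 0.0931 TPM in a wild type library. The interaction was 1.64 in line 1 and 1.66 in line 2 (SE 0.22 each), and 0.36 and 0.42 with a pseudocount of 0.1, where neither was called. Its level with ABA was also higher in the lines, at 13.0, 9.37 and 10.9 TPM in line 1 and 11.6, 10.7 and 10.3 TPM in line 2, against 3.12, 3.37 and 3.40 TPM in wild type. ABA-treated wild type replicates 2 and 3 did not stand apart at this member.

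The third, BnaA02G0403000ZS (4030), was above its untreated level with PEG in the lines, while its wild type values overlapped. It had 9.77, 10.9 and 7.25 TPM in PEG-treated line 1 against 1.39, 2.06 and 2.05 TPM untreated, and 12.9, 10.6 and 8.82 TPM in PEG-treated line 2 against 2.63, 2.55 and 1.93 TPM untreated. Wild type had 3.00, 3.63 and 2.95 TPM with PEG and 3.13, 3.67 and 2.66 TPM untreated, which overlap. The interaction was 1.84 in line 1 and 1.78 in line 2 (SE 0.20 each, limma adjusted p = 4.09e-05 and 5.38e-05), and it was still called with a pseudocount of 0.1. In the knockout experiment 4030 had 3.68, 3.73 and 4.12 in PEG-treated wild type against 4.66, 4.54 and 4.82 untreated.

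**Figure D5:**
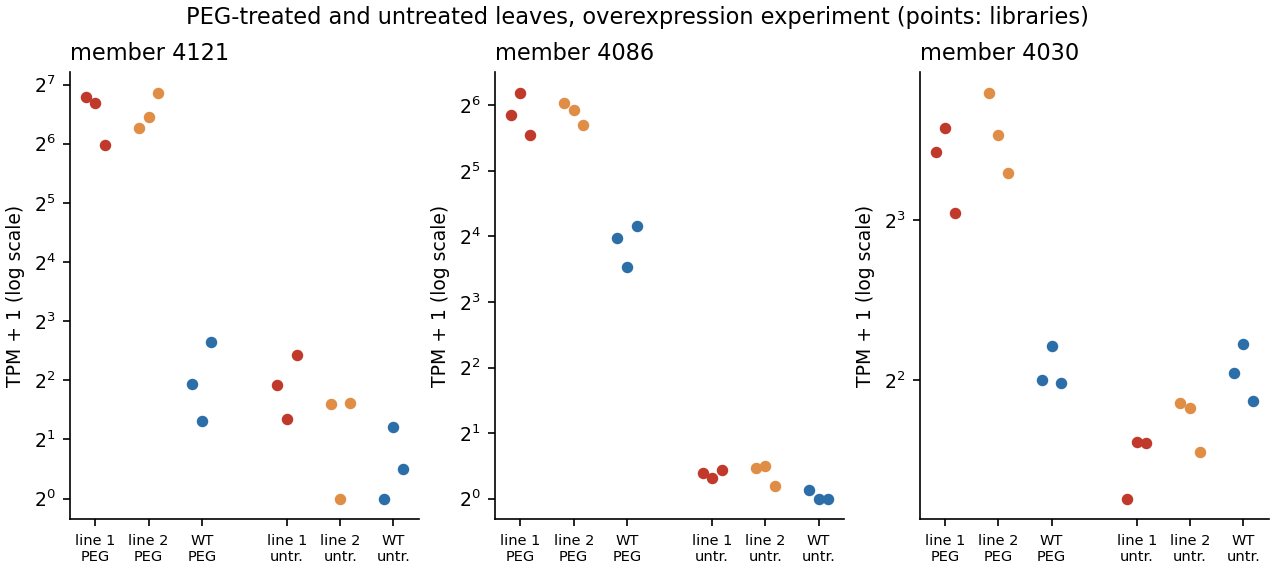
TPM + 1 on a log scale (y axes) of members 4121, 4086 and 4030 in each library of line 1, line 2 and wild type, PEG-treated on the left of each panel and untreated on the right. With PEG every line library lies above every wild type library in all 3 panels, and for 4030 the untreated line libraries lie below the untreated wild type ones.

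No member was called for an interaction with ABA in either line (0.0211% and 0.0316% of all genes called), while 46 members in line 1 and 47 in line 2 had an unadjusted p under 0.05, which is 20.8% and 21.3% of those tested against 5.98% and 6.32% of all genes. Without ABA-treated wild type replicate 1, the library near untreated wild type, 15 members were called in each line. The interaction was negative for 11 of them in line 1 and 12 in line 2. In these the signed log2 change with ABA was lower in the line than in wild type. Without replicates 2 and 3, which leaves 1 ABA-treated wild type library, limma called none. Leaving out untreated wild type replicate 2 gave 1 call in line 1, and leaving out untreated line 2 replicate 3 or ABA-treated wild type replicate 3 gave 2 in line 2.

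The wild type of the knockout experiment gave the treatment responses a second time, in its own libraries and unit. ABA called 34 members higher and 88 lower (12.7% and 36.6% of all genes), and PEG 54 higher and 70 lower (33.5% and 26.2%). Without the 2 knockout-experiment libraries that stood apart, ABA called 33 higher and 72 lower and PEG called 54 higher and 66 lower. The largest rise with both was that of BnaA02G0419400ZS (4194), to 28.7, 28.9 and 24.5 with ABA and 176, 243 and 321 with PEG, against 0, 0.0263 and 0.0356 untreated (log2 changes 4.79 and 7.88, limma adjusted p = 4.08e-06 and 2.13e-08). The same member never passed 1.01 TPM in any library of the overexpression experiment, with or without PEG, and was not tested there. BnaA02G0403400ZS (4034) rose to 18.7, 15.2 and 16.6 with ABA against 2.26, 1.57 and 2.36 untreated (limma adjusted p = 5.48e-05), and it was not tested in the overexpression experiment. There it had at most 0.0769 TPM in any line library, against 0.184 to 0.948 TPM in the wild type libraries, with no overlap. BnaA02G0383800ZS (3838) had 0.365, 0.650 and 1.36 with ABA against 7.18, 23.6 and 42.3 untreated (limma adjusted p = 0.00101), with untreated values that differed widely among themselves. Member 3901 fell with PEG here too, to 0.873, 0.517 and 0.244 against 10.007, 10.3 and 6.92 untreated (limma adjusted p = 7.07e-08).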

How the data were processed

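Transcript values of leaf RNA were analysed in 2 experiments, fitted separately because the tables were normalized separately. The authors deposited TPM for the overexpression experiment and, for the knockout experiment, a normalized score per gene whose kind is not stated. HISAT2, kallisto 0.51.1, sleuth 0.30.1 and DESeq2 1.38.3 are named per the submitters' processing notes, with no role. No source used here names the genome build or its annotation. The values carry no read counts, so depth is unknown and no count test was run.

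TPM of transcripts were summed to genes. Genes with at least 1 in at least 3 libraries were fitted as log2(value + 1) with limma 3.58.1 (R 4.3.3) over all groups of an experiment, with all mapped columns (0 left unmapped), a trended prior and Benjamini-Hochberg adjustment over all genes tested, called at 0.05. The scripts were checked on simulated data. Sums and figures used Python 3.11.15, pandas 2.3.3 and matplotlib 3.10.9. Members and lists were chosen with earlier results of these data known. At most 2 members are named for each direction of a comparison, those that changed most among called members whose groups do not overlap, whose higher group averages 5 or more and whose change is 2-fold or larger. Others are said to be picked on their values. Alternatives were another pseudocount, filter and normalization, a replicate block, only the compared groups, and leaving out libraries. Values of the raised and lowered members without the libraries that stood apart were added after the data were seen.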

Additional observations from a re-analysis of the deposited data

Results flagged for a closer look

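Members whose PEG response differed between a line and wild type numbered 13 in line 1 and 10 in line 2 by the limma interaction, which takes the libraries that chose the segment. With a pseudocount of 0.1 the counts were 2 and 4. Member BnaA02G0412100ZS (4121) had interactions of 3.20 in line 1 and 4.07 in line 2 on the log2 scale. For BnaA02G0408600ZS (4086) the PEG response was larger by a log2 of 1.64 in line 1 and 1.66 in line 2. For BnaA02G0403000ZS (4030) the difference was 1.84 in line 1 and 1.78 in line 2. What lies behind these differences was not tested.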

How the results depend on the processing

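Every value here is a count of called members of the segment unless a ratio is named. With at least 5 in at least 3 libraries, fewer members were tested, and 60 were called in line 1 and 66 in line 2 untreated, 74 and 76 with PEG, 86, 89 and 69 for the PEG responses of line 1, line 2 and wild type, 6 for the untreated knockout, 1 for the knockout with ABA, and 68 and 77 for the ABA and PEG responses of the knockout experiment's wild type. A pseudocount of 0.1 gave 2 and 4 for the PEG interactions of line 1 and line 2, and quantile normalization gave 16 in line 2. Same-numbered libraries did not deviate together (median correlation 0.0367 in the knockout and -0.0157 in the overexpression experiment), and a replicate block gave 1 and 1 for the ABA interactions, 8 for the PEG interaction of line 1 and 1 for the knockout with ABA. With only the compared groups fitted, the counts were 7 in line 1 and 11 in line 2 with ABA, 63 in line 1 with PEG, 6 for its PEG interaction and 0 for the knockout with ABA. Without a filter the knockout had 1 with ABA and 1 with PEG, and with equal library sums 1 with ABA. Without the libraries that stood apart, the ABA response of wild type had 42, and the ABA ratios of both lines were 1.60. Without the 5 most abundant members the PEG ratios were 1.77 in line 1, 1.93 in line 2 and 0.877 in the knockout, and the ABA ratio of the knockout turned to 1.02. Leaving out single libraries gave 29 to 64 in line 1 and 30 to 71 in line 2 with ABA, 0 to 15 for the ABA interaction of each line, 6 to 28 and 7 to 18 for the PEG interactions, 0 to 3 between the lines with PEG, and 4 to 9 untreated, 0 to 4 with ABA and 0 to 1 with PEG for the knockout. The causes were not tested.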
